A study of Cervus nippon with 40 samples.

Results

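The miRNAs described here are those of blood cells, chosen by name as miR-142, miR-150, miR-223 and miR-155 with any arm suffix. Of the 500 miRNA names listed over 40 small RNA libraries of Sika Deer, 3 fit, listed under cattle names as bta-miR-142-5p, bta-miR-142-3p and bta-miR-150 and given below without the prefix. No name of miR-223 or miR-155 was listed in the tables used here, so no value is given for either. The libraries came from spleen, lung, liver, kidney, heart, muscle, brain, testes, adrenal and antler of male deer of the Shuangyang breed. Each organ had 1 library at each of 4 stages, juvenile (1 year old), adolescence (3 years old), adult (5 years old) and aged (10 years old). Per the methods of the study, RNA of 3 deer was pooled for each library and 12 deer were used in all. The 10 organ libraries of a stage thus share the same deer, and the 4 stages are different deer. The labels give no treatment. With no second library of an organ at a stage, the spread between deer of one stage was not measured.

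A miRNA is a short RNA that lowers the output of messenger RNAs it pairs with, and it is cut from a hairpin whose arms give a 5p and a 3p product. miR-142 is made in nearly all blood-forming cells, from stem cells to granulocytes and lymphocytes, and serves as their general marker. miR-150 is abundant in mature B and T lymphocytes, where it restrains the transcription factor Myb. miR-223 is the classical miRNA of granulocytes and other myeloid cells, and miR-155 is induced in activated lymphocytes and macrophages. The spleen holds many lymphocytes in its white pulp and many red cells and macrophages in its red pulp, and the lung holds resident macrophages and a large volume of blood. With miR-223 not listed, a purely myeloid miRNA was not measured here, and the comparison of lineages rests on miR-142-5p as a general blood-cell miRNA against miR-150 as a lymphocyte miRNA.

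Values are in RPM, the reads of a miRNA per 1000000 miRNA reads of its library, from which the reads were recovered. let-7b and miR-3596 were listed with the same reads in all libraries, and both names, with the smaller pair miR-152 and miR-2957, were counted in the base of the RPM. The second listings of these pairs made up 0.107% to 41.6% of that base. The share was 5.16% in the aged spleen and up to 34.7% in the other spleens and lungs. If these are the same reads listed under both names, RPM values are too low by at least that share. By these pairs alone, the aged spleen was least affected among spleens and lungs. Other pairs gave nearly equal log2 differences between spleen and other organs. Examples were miR-26a with miR-26c (0.001 each) and miR-199a-3p with miR-3604 (-0.295 each). They were not counted in the share, which may thus be higher. The libraries held 41866 to 7759033 miRNA reads (median 744715), and the 8 spleen and lung libraries 417621 to 1046331. The aged testes was the smallest library, where 0 reads allow a level of up to 71.7 RPM (3 reads). The labels of brain, heart, muscle and liver were checked by miRNAs known from those organs. miR-124a of neurons averaged 32290 RPM in brain and 160 RPM in testes, the next organ. miR-208b of heart muscle averaged 42.7 RPM in heart and 1.64 RPM in muscle, and miR-1 of striated muscle was highest in muscle. miR-192, taken for liver, was not specific to it, at a mean of 162700 RPM in kidney and the same in liver, so it does not check the liver label. All intervals and limits below cover counting error only, since PCR reads without molecular identifiers are not independent molecules.

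miR-142-5p was read in 38 of 40 libraries, with 2462 reads in all and a median of 25.5 RPM. Its reads were unevenly placed, with 1190 of them, or 48.3%, in the aged spleen. In the spleen its level was 57.6 RPM in the juvenile, 104 RPM in the adolescence, 6.62 RPM in the adult and 2849 RPM in the aged library. The adult and the aged spleens were therefore the lowest and the highest of the organ, 430-fold apart (6 and 1190 reads). In the lung its level was 18.2 RPM in the juvenile, 369 RPM in the adolescence, 49.5 RPM in the adult and 91.2 RPM in the aged library. The adolescence lung stood above the other 3 lungs, and it was the third highest of all 40 libraries after the aged spleen and the adolescence testes. In these bulk samples, fewer cells of a type and less RNA per cell cannot be told apart.

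Outside both organs, miR-142-5p was steadiest in antler, the bony outgrowth that deer regrow each year. The antler level was 144 RPM in the juvenile, 98.1 RPM in the adolescence, 126 RPM in the adult and 127 RPM in the aged library, a range of 1.47-fold. In testes it was 175 RPM and 565 RPM in the juvenile and adolescence libraries, 30.9 RPM (3 reads) in the adult and 0 reads in the aged library. In kidney it was 91.1 RPM and 141.7 RPM in the younger pair and 15.2 RPM in both the adult and the aged library. The high values of testes and kidney were thus those of the younger stages.

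The remaining organs had lower levels of miR-142-5p. In liver it was 13.7 RPM, 24.2 RPM, 51.3 RPM and 31.5 RPM from the juvenile to the aged library. In adrenal it was 43.1 RPM, 36.2 RPM, 3.34 RPM and 5.35 RPM in the same order. In brain it was 26.7 RPM in the juvenile library, 0 reads in the adolescence library, which allows up to 8.14 RPM, and 3.76 RPM and 4.34 RPM in the adult and aged libraries. Liver was highest at the older stages, and adrenal and brain had their highest value in the juvenile library. Heart lay between 6.58 and 15.2 RPM. Muscle lay between 0.616 and 1.99 RPM, and there miR-1 made up most of the miRNA reads, with a mean of 919200 RPM, which lowers the RPM of every other miRNA.

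The other arm, miR-142-3p, had 43 reads in 9 libraries, of which 20 were in the aged spleen (47.9 RPM) and 6 in the adolescence lung (9.23 RPM). Over all libraries the 5p arm made up 98.3% of the miR-142 reads (95% exact binomial interval 97.7 to 98.8). The 5p share was 98.3% (97.5 to 99) in the aged spleen and 97.6% (94.8 to 99.1) in the adolescence lung. The intervals of both libraries thus held the share over all libraries. The aged spleen itself gave 1190 of the 2462 5p reads and 20 of the 43 3p reads, so its likeness to that share is no separate result. The 3p arm reached 10 reads in 1 library and was not tested.

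miR-150 was read in 37 of 40 libraries, with 1423 reads in all and a median of 18.04 RPM. The spleen held 53.5% of these reads. In the spleen its level was 256 RPM in the juvenile, 325 RPM in the adolescence, 267 RPM in the adult and 31.1 RPM in the aged library. The 3 younger spleens were the highest of all 40 libraries, and the aged spleen, with 13 reads, lay within the range of the other organs. In the lung its level was 44.0 RPM in the juvenile, 13.8 RPM in the adolescence, 31.3 RPM in the adult and 90.2 RPM in the aged library, so that the adolescence lung was the lowest lung for miR-150 and the highest for miR-142-5p.

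Liver and kidney followed the spleen for miR-150. The liver level was 43.4 RPM, 33.3 RPM, 94.8 RPM and 70.1 RPM from the juvenile to the aged library. The kidney level was 6.07 RPM (2 reads), 68.1 RPM, 115 RPM and 130 RPM in the same order. Both organs were higher in the adult and aged than in the juvenile and adolescence libraries. In brain miR-150 was 4.31 RPM in the juvenile library and 43.4 RPM, 56.3 RPM and 32.5 RPM in the later ones. In heart it was 1.16 RPM and 0 reads in the younger pair, where 0 reads allow up to 1.17 RPM, and 13.2 RPM and 15.5 RPM in the older pair. Adrenal lay between 4.79 and 10.7 RPM, and testes between 9.33 and 59.5 RPM on 1 to 5 reads a library. Muscle lay between 0.258 and 1.65 RPM. Antler had no miR-150 read in the juvenile and adolescence libraries, which allows up to 13.97 and 14.01 RPM, and 1.48 RPM (1 read) and 13.8 RPM in the adult and aged libraries. Antler, where miR-142-5p was steady, was thus among the organs with the least miR-150.

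**Figure D1:**
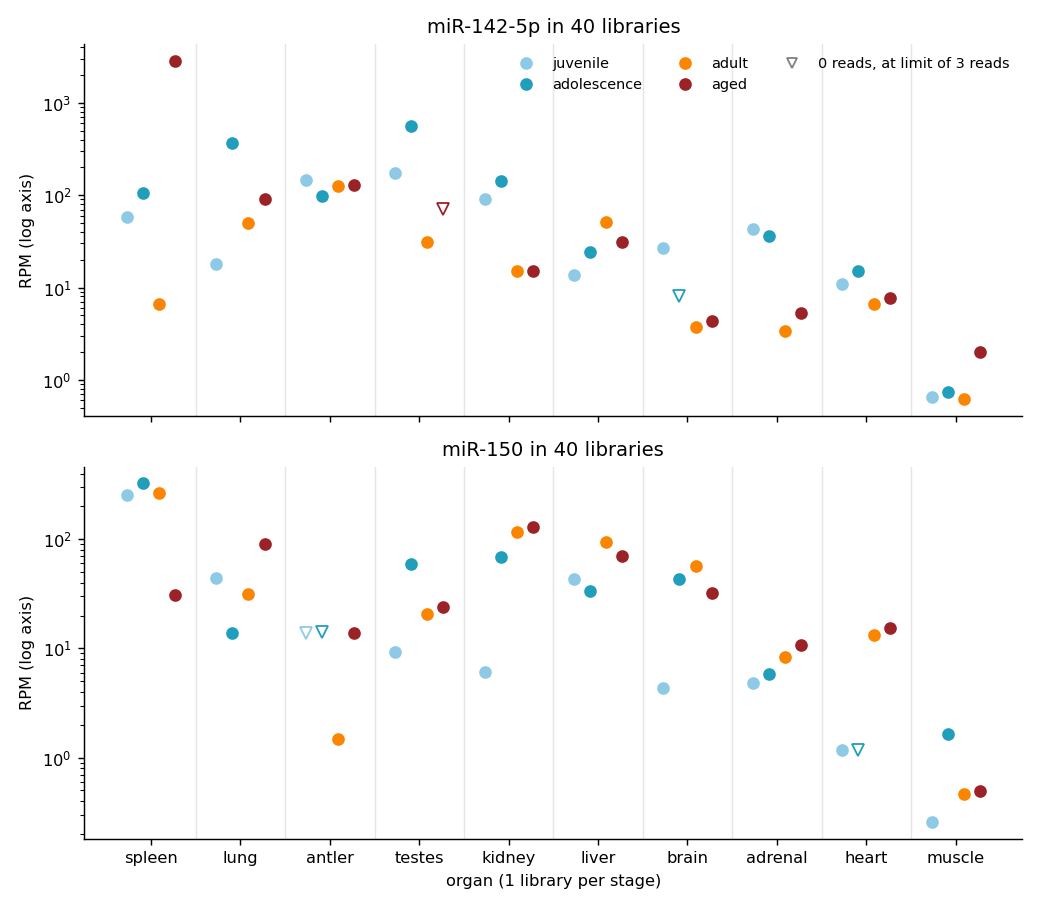
Level of miR-142-5p (top) and miR-150 (bottom) in each of 40 libraries, in RPM on a log axis, by organ, with colour for the stage and open triangles at the limit of 3 reads for libraries with 0 reads. The aged spleen is the highest library for miR-142-5p (2849 RPM), and the other 3 spleens are the highest for miR-150 (256 to 325 RPM).

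The first comparison asked whether the blood-cell miRNAs were higher in the spleen than in the other 9 organs. miR-150 was higher in the spleen by 3.23 on the log2 scale (SE 0.65, limma adjusted p = 7.42e-04), the juvenile, adolescence and adult spleens being its 3 highest libraries. For miR-142-5p the difference was 1.81 (SE 0.95, limma adjusted p = 0.224), which did not pass the test. The model fitted organ and stage over 40 libraries on log2(RPM + 1) after TMM scaling, a scaling that sets the bulk of miRNAs level between libraries. The scale understates changes of miRNAs near 1 RPM. A call needed an adjusted p below 0.01 and an absolute log2 difference above 1, and 4.84% of the 124 miRNAs tested were called in this comparison, 4.03% of them higher in the spleen. The miR-150 call was lost without the juvenile spleen (2.64, limma adjusted p = 0.0273) and without the adolescence spleen (2.75, limma adjusted p = 0.0207). It was also lost without all juvenile libraries (2.52, limma adjusted p = 0.0643) or all adult libraries (3.09, limma adjusted p = 0.0242). The miR-142-5p difference rested on 1 library, being -0.07 without the aged spleen, while the count models called it with that library kept (edgeR 4.25, adjusted p = 0.00161, and DESeq2 4.49, adjusted p = 2.33e-06).

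In the lung against the other 9 organs, miR-142-5p was higher by 1.87 (SE 0.95, limma adjusted p = 0.165) and miR-150 by 1.48 (SE 0.65, limma adjusted p = 0.103). Neither passed the test, in a comparison where 12.9% of miRNAs were called. Between spleen and lung, the difference in miR-150 was 1.57 (SE 0.87, limma adjusted p = 0.359) and that in miR-142-5p -0.06 (SE 1.27, limma adjusted p = 0.981). Neither was among the 5.65% of miRNAs called. Without the aged spleen the spleen and lung differed by -1.90 in miR-142-5p, and its sign turned under 26 of the 61 alternatives run.

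On the TMM-scaled scale, the organs ranked by the mean of miR-142-5p were antler (6.84 ± 0.43, SD over 4 stages), lung (6.26 ± 1.97), spleen (6.21 ± 3.45), kidney (4.38 ± 1.56), muscle (4.36 ± 0.49), testes (4.33 ± 3.13), heart (4.32 ± 1.78), liver (3.75 ± 0.50), adrenal (3.06 ± 1.93) and brain (2.24 ± 2.08). The spleen had the widest spread over stages. No neighbours in this order differed by the limma test, and of the differences from antler only that with brain was past the limit (4.61, limma adjusted p = 0.00240). For miR-150 the order was spleen (6.81 ± 1.57), lung (5.24 ± 0.96), liver (4.73 ± 0.34), kidney (4.67 ± 1.85), brain (4.66 ± 1.49), muscle (3.79 ± 1.42), testes (3.21 ± 0.62), heart (2.39 ± 1.85), adrenal (2.17 ± 0.28) and antler (1.35 ± 1.85). Again no neighbours differed. The spleen was past the limit above muscle (3.01, limma adjusted p = 0.00539), testes, heart, adrenal and antler (5.46, limma adjusted p = 4.88e-06), and not above lung, liver, kidney or brain. The TMM factors of muscle were 0.0291 to 0.0746, which puts muscle in the middle of both orders although it was the lowest organ in RPM.

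Library pairs were also compared with the random sampling model named in the methods of the study, which tests the reads of 2 libraries against each other and not the conditions. Pairs with q below 0.01 and a log2 ratio beyond 1 in either direction were called. Against the other organs of the same stage, the spleen library had more miR-150 in 28 of 36 pairs and less in 3, where 25.4% of all miRNA pairs were called higher and 16.3% lower. For miR-142-5p the spleen was higher in 20 pairs and lower in 8. All pairs of the aged spleen were among the higher ones. The adult spleen was called higher against muscle alone, and lower against antler, lung, liver and testes. The lung was higher in 22 and lower in 7 of 36 pairs for miR-142-5p, and higher in 20 and lower in 8 for miR-150, with 17.6% and 22.1% of all miRNA pairs called higher and lower. The pairs of a stage all share the one spleen or lung library of that stage, so these counts rest on 4 libraries each.

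The stages were then set against each other within the spleen and the lung. In the spleen 21.1% of all miRNA pairs between stages were called, and miR-142-5p was called in 5 of 6 pairs and miR-150 in 3 of 6. The aged spleen had 49.4-fold the juvenile, 27.3-fold the adolescence and 430-fold the adult level of miR-142-5p. For miR-150 it was 8.24-fold below the juvenile (q = 1.93e-28), 10.4-fold below the adolescence (q = 2.98e-40) and 8.58-fold below the adult spleen (q = 2.52e-31). The adult spleen was 8.70-fold below the juvenile (q = 1.43e-09) and 15.8-fold below the adolescence spleen (q = 2.05e-20) in miR-142-5p. Over the 3 younger spleens miR-150 stayed within 1.27-fold, and none of those pairs was called. The drop of miR-142-5p in the adult spleen had no counterpart in miR-150, whereas in the aged spleen the 2 miRNAs lay on opposite sides of the younger libraries.

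In the limma model with a term of its own for the aged spleen, this library was 7.34 above what its organ and stage gave for miR-142-5p (SE 1.81, limma adjusted p = 0.0109) and 4.12 below for miR-150 (a difference of -4.12, SE 1.34, limma adjusted p = 0.0329). Both missed the limit of 0.01, which 1.61% of miRNAs passed. The miR-142-5p difference was called by edgeR (7.27, adjusted p = 4.83e-04) and DESeq2 (7.84, adjusted p = 2.54e-06), with a pseudocount of 10 (6.34, limma adjusted p = 2.30e-04) and with the size factors of DESeq2 (7.81, limma adjusted p = 0.00737). The miR-150 difference was called by DESeq2 (-3.63, adjusted p = 0.00896) and with a pseudocount of 10 (-3.17, limma adjusted p = 0.00395), and not by edgeR (-4.13, adjusted p = 0.0339). The value is that of 1 library, whose spread is taken from all organs.

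Other miRNAs moved in the aged spleen as well. miR-1 of striated muscle was at 52060 RPM there and at 1782 to 7564 RPM in the younger spleens, and it was one of the miRNAs called in that model (5.02, SE 1.11, limma adjusted p = 0.00383). The other abundant muscle miRNAs were lower there than in every younger spleen, miR-133a at 1839 RPM against 3388 to 5650 RPM and miR-133b at 47.9 RPM against 58.8 to 90.5 RPM, and the 4 tested names of the striated muscle list had a median of -0.54 beside 0.11 over all tested. The 20 listed names of other leucocyte-linked miRNAs summed to 27000 RPM in the aged spleen and to 5817 to 11740 RPM in the younger ones. Most of that sum was miR-186, at 23750 RPM against 4970 to 9355 RPM. Over the 40 libraries the list summed highest in the adolescence testes, at 32070 RPM, and the adolescence kidney had 26960 RPM. A high sum was thus not particular to the aged spleen. miR-342, which is found in lymphocytes and monocytes, was at 1135 RPM against 275 to 670 RPM. miR-125a of the same list, named after its values were seen, was at 2.40 RPM against 28.7 to 40.4 RPM. Of the 20 names, 7 were above all 3 younger spleens, 1 was below them and 12 were neither, and 0 of the 8 tested were called in the aged spleen (2 at an unadjusted limma p under 0.05), with a median of 0.77. Both listed erythroid names, miR-486 and miR-451, summed to 3941 RPM, within the 2943 to 5800 RPM of the younger spleens. Nearly all of that sum was miR-486 (3937 RPM), and the sum was far higher in the aged heart (40670 RPM). miR-451, with 8 reads over all libraries, was at 4.79 RPM in the aged spleen and at 0 in the younger ones. The hepatocyte list, all of it miR-192 here, was at 4842 RPM against 408.4 to 3771 RPM, with a difference of 2.59 in that model. The sums of the leucocyte list, led by miR-186, and of the hepatocyte list thus stood above the younger spleens. Among the muscle names miR-1 alone did so. The part of these miRNAs in the miR-142-5p and miR-150 levels was not tested.

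In the lung 20.0% of all miRNA pairs between stages were called, and miR-142-5p was called in 5 of 6 pairs and miR-150 in 4 of 6. The adolescence lung had 20.3-fold the juvenile level of miR-142-5p (q = 1.58e-69), 7.45-fold the adult (q = 5.74e-43) and 4.05-fold the aged level (q = 4.61e-34). For miR-150 it was 3.18-fold below the juvenile lung (q = 0.0006) and 6.52-fold below the aged lung (q = 1.98e-12), and the pair with the adult lung was not called (2.26-fold, q = 0.078). The aged lung had 2.88-fold the adult (q = 1.41e-06) and 2.05-fold the juvenile level of miR-150 (q = 1.45e-04). The adolescence lung had the same layout as the aged spleen, with miR-142-5p at its highest and miR-150, on 9 reads, at its lowest in the organ. This lung was singled out because earlier results of these data had it nearest to the aged spleen, so the likeness is no separate result.

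Set against the organ and stage model, the adolescence lung differed by 2.52 in miR-142-5p (SE 2.17, limma adjusted p = 0.628) and by -1.66 in miR-150 (SE 1.496, limma adjusted p = 0.655). Neither was called, and limma, edgeR and DESeq2 each called 0 of the 124 miRNAs there (5 at an unadjusted limma p under 0.05). The other leucocyte-linked names summed to 16960 RPM in this library and to 4092 to 7786 RPM in the other lungs, of which miR-186 was 14160 RPM. At the same stage the sum was higher in adrenal (17450 RPM), kidney (26960 RPM) and testes (32070 RPM), and lower in the other organs. miR-1 was at 4815 RPM against 969 to 1047 RPM. Of the 20 leucocyte-linked names 6 were above all 3 other lungs, 1 was below them (miR-125a, 7.69 RPM against 11.7 to 42.1 RPM) and 13 were neither, among them miR-342 at 158 RPM, within the range of the other lungs. Of the 7 striated muscle names miR-1 alone was above the other lungs, and miR-133a was at 260 RPM against 253 to 655 RPM. miR-192 of the hepatocyte list was at 3224 RPM against 569.9 to 1344 RPM. miR-186, miR-1 and miR-192 were thus high where miR-142-5p was high. So was miR-17-5p of the leucocyte list, at 1805 RPM in the aged spleen against 406 to 1355 RPM in the younger ones. It was at 2364 RPM in the adolescence lung against 359 to 700 RPM in the other lungs. Most names of the leucocyte and striated muscle lists were not high. However, 8 of the 20 leucocyte names had 0 reads in the aged spleen and 6 in the adolescence lung, and so could not stand above. The same held for 4 of the 7 striated muscle names in each library. The part of these miRNAs was not tested.

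**Figure D2:**
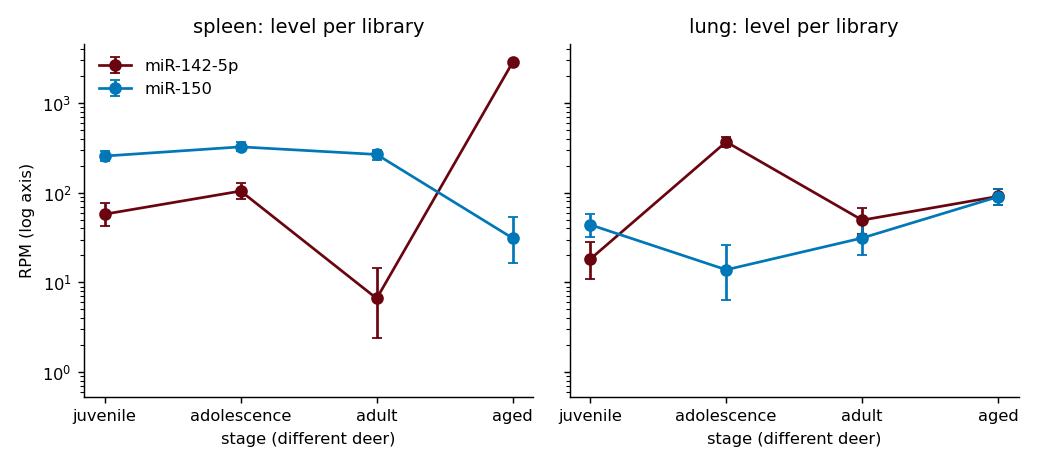
Level of miR-142-5p and miR-150 in the spleen (left) and lung (right) at 4 stages, in RPM on a log axis, each point 1 library of 3 pooled deer with its exact 95% interval of counting error and lines to guide the eye between different deer. miR-142-5p is highest where miR-150 is lowest, in the aged spleen (2849 and 31.1 RPM) and in the adolescence lung (369 and 13.8 RPM). The adolescence lung was singled out for its nearness to the aged spleen in earlier results of these data.

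The next comparison asked how both miRNAs moved between the younger stages (juvenile and adolescence) and the older ones (adult and aged) over all organs. miR-142-5p was lower in the older libraries by 1.09 (a log2 difference of -1.09, SE 0.57, limma adjusted p = 0.164) and miR-150 higher by 0.90 (SE 0.39, limma adjusted p = 0.0979). Neither passed the test, in a comparison where 8.06% of miRNAs were called. Over any difference between the 4 stages the limma F test gave adjusted p = 0.375 for miR-142-5p and 0.163 for miR-150, with 4.84% of miRNAs called. Stage and deer cannot be told apart, since the 10 organs of a stage share 3 deer. The calls over all miRNAs in the older against younger comparison were 3 higher and 7 lower, and 4 higher and 0 lower when scaled to all miRNA reads.

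Within single organs, both older libraries were below both younger ones for miR-142-5p in adrenal, heart, kidney and testes, and above them in liver. For miR-150 both older libraries were above both younger ones in adrenal, antler, heart, kidney and liver, and below them in none of the 10 organs. In antler this rests on 0 reads in each younger library against 1 and 10 reads in the older ones. The limits of 3 reads there, 13.97 and 14.01 RPM, lie above both older values (1.48 and 13.85 RPM), so the direction in antler is not resolved. Over all miRNAs and organs, 23.3% of cases had both older libraries above and 22.4% below. These shares differed between organs. Both older libraries were above for 50.8% of the tested miRNAs in heart, 41.9% in adrenal, 25.8% in kidney, 22.6% in liver and 14.5% in antler, and below for 8.06% in heart, 31.5% in adrenal, 37.9% in kidney and 35.5% in testes. Against these shares, a higher miR-150 in heart and adrenal and a lower miR-142-5p in adrenal, kidney and testes were common among miRNAs of those organs. In RPM, the share of organs was 4 of 10 lower and 1 higher for miR-142-5p and 5 of 10 higher for miR-150, with the unresolved antler among the latter. The organs with both shifts at once were adrenal, heart and kidney. On the TMM-scaled levels, adrenal was lost for miR-150, where it rests on 3 to 10 reads a library, lung was added for miR-150, and antler was added among the organs with higher miR-142-5p.

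Kidney showed these shifts on the most reads. Its mean level of miR-142-5p was 116 RPM in the younger pair and 15.2 RPM in the older pair, a 7.67-fold lower level. Its mean level of miR-150 was 37.1 RPM in the younger and 122.5 RPM in the older pair, a 3.30-fold higher level. In the kidney miR-142-5p was called lower in the later library in 4 of 6 pairs of stages and miR-150 higher in 3 of 6, where 10.8% of all miRNA pairs were lower and 6.77% higher. In adrenal miR-142-5p was called lower in 4 of 6 pairs (9.93% of all miRNA pairs) and miR-150 in none. In heart miR-150 was called higher in 4 of 6 pairs (19.4% of all) and miR-142-5p in none, but with TMM-scaled totals miR-142-5p was called in 5 of 6 heart pairs, 4 of them lower in the later library. The brain had miR-142-5p lower and miR-150 higher in 3 of 6 pairs each, those with its juvenile library (9.61% of all pairs lower and 16.3% higher). Over all 60 pairs of stages miR-142-5p was called higher in the later library in 8 and lower in 19, and miR-150 higher in 15 and lower in 4, where 10.2% of all miRNA pairs were called higher and 8.84% lower.

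Whether an organ differed from the other 9 in its shift between younger and older libraries was tested with an interaction term. The largest such differences of miR-142-5p were in testes (-3.83, SE 1.81, limma adjusted p = 0.307) and spleen (2.66, SE 1.86, limma adjusted p = 0.540). For miR-150 the spleen differed by -2.38 (SE 1.25, limma adjusted p = 0.396) and the heart by 2.24 (SE 1.26, limma adjusted p = 0.639). None passed the test. The shift within the spleen itself was 1.30 for miR-142-5p and -1.24 for miR-150, each opposite in sign to its shift over all organs. Both rest on the aged library. The adult spleen was below both younger spleens in miR-142-5p (6.62 RPM) and between them in miR-150 (267 RPM).

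The reads of both miRNAs were set side by side within each library, which leaves out the scaling of the library. miR-142-5p had more reads than miR-150 in 7 of 10 juvenile, 6 of 10 adolescence, 4 of 10 adult and 4 of 10 aged libraries. Without spleen and lung these were 7, 5, 3 and 2 of 8. Some libraries were placed by nearly equal reads of miR-142-5p and miR-150. They were the aged testes (0 and 1), adult testes (3 and 2), adult muscle (4 and 3) and aged lung (95 and 94). The interval of the miR-142-5p share ran from 0 to 97.5% in the aged testes and from 14.7 to 94.7% in the adult testes. The median share of miR-142-5p in the reads of both was 88.0% in the juvenile, 76.8% in the adolescence, 34.2% in the adult and 33.3% in the aged libraries. The spleen was low at the younger stages and in the adult and high in the aged library, at 18.4% (13.9 to 23.5) in the juvenile, 24.3% (20.1 to 29) in the adolescence, 2.42% (0.893 to 5.19) in the adult and 98.9% (98.2 to 99.4) in the aged library. In the lung the share was 29.2% (18.6 to 41.8), 96.4% (93.2 to 98.3), 61.3% (48.1 to 73.4) and 50.3% (42.9 to 57.6) in the same order. miR-142-5p thus outnumbered miR-150 by 91.5 to 1 in the aged spleen and 26.7 to 1 in the adolescence lung, and miR-150 outnumbered miR-142-5p by 40.3 to 1 in the adult spleen. These shares describe libraries of different deer and carry no test.

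**Figure D3:**
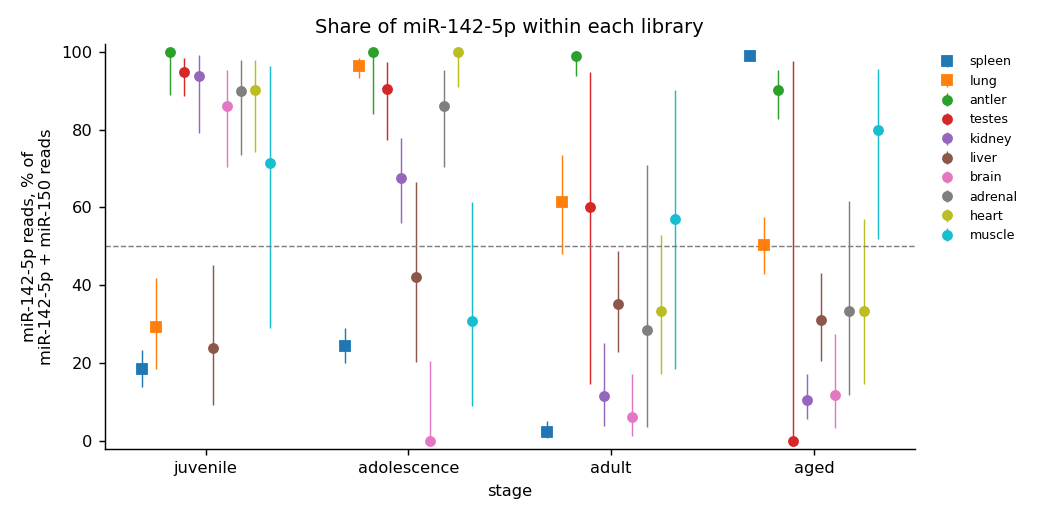
Share of miR-142-5p in the summed reads of miR-142-5p and miR-150 (percent) in each library by stage, with colour for the organ, squares for spleen and lung and bars for the exact 95% interval of counting error. The median is 88.0% in the juvenile and 33.3% in the aged libraries, while the aged spleen lies at 98.9%.

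**Figure D4:**
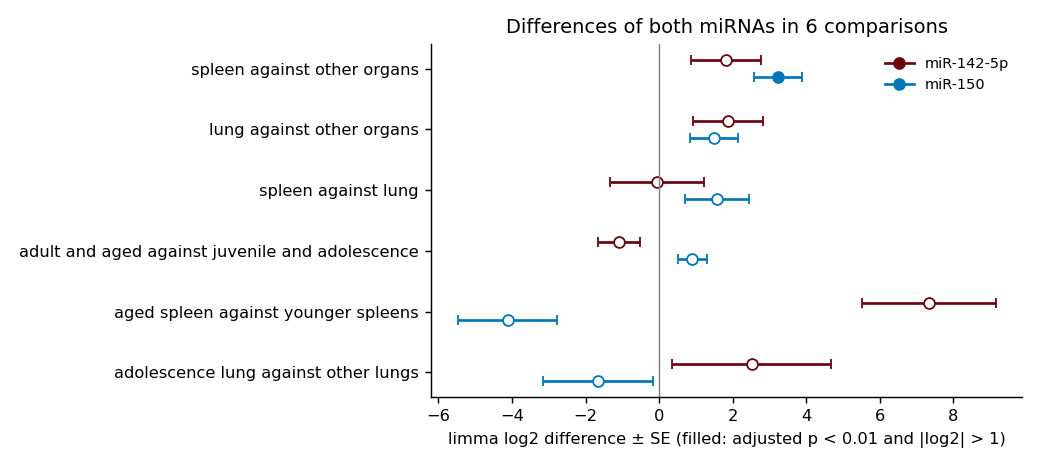
Differences of miR-142-5p and miR-150 in 6 comparisons of the limma model (log2 scale, bars are SE, filled points are called). The one filled point is miR-150 in the spleen against other organs (3.23), and in the aged spleen the estimates of both miRNAs lie on opposite sides of 0 (7.34 and -4.12).

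Over the 40 libraries the TMM-scaled levels of both miRNAs had Pearson's r of -0.189 (Spearman's rho -0.248), and r was -0.491 after the mean of each organ was taken off. These are descriptions over libraries that share deer within a stage and their scaling within a library. The tested miRNAs most like miR-142-5p over the 40 libraries were miR-2285f (r = 0.764), miR-152 and miR-2957 (r = 0.685 each). The latter pair, with the same 888 reads, count as one. miR-2285f was at 120 RPM in the aged spleen and 66.1 RPM in the adolescence lung, and between 5.52 and 16.3 RPM in the other spleens and lungs. The same libraries were high as for miR-142-5p, which the choice by r favours. The least like were miR-328 (r = -0.714), miR-1343-3p (r = -0.676) and miR-1296 (r = -0.635). miR-1343-3p was at 50.3 RPM in the aged spleen and 43.1 RPM in the adolescence lung, and between 189 and 508 RPM in the other spleens and lungs.

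For miR-150 the most like were let-7a-5p (r = 0.624), miR-197 (r = 0.583) and let-7d (r = 0.578), all at lower r than the best for miR-142-5p. miR-197 was at 587 RPM in the aged spleen and 429 RPM in the adolescence lung, against 1599 to 3966 RPM in the other spleens and lungs. The least like were miR-708 (r = -0.554), miR-33a (r = -0.514) and miR-374a (r = -0.486). miR-374a was at 706 RPM in the aged spleen and 261.5 RPM in the adolescence lung, and between 24.7 and 114.5 RPM in the other spleens and lungs. The aged spleen and the adolescence lung were thus at one end for miR-2285f and miR-374a and at the other for miR-1343-3p and miR-197. These names were chosen by r over libraries that include both, so this is no separate support. miR-708 was at 2.395 RPM in the aged spleen, within the 0 to 5.615 RPM of the younger spleens. In the adolescence lung it was at 10.77 RPM against 2.607 to 4.797 RPM in the other lungs.

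Lists of miRNAs linked to other cells gave few calls. Of 29 other leucocyte-linked miRNAs, 20 were listed and 8 tested, and 0 of these were called by limma in the spleen or lung comparisons (1 in each at an unadjusted p under 0.05), with a median difference of 0.11 in the spleen and 0.36 in the lung beside -0.11 and -0.09 over all miRNAs tested. None was called in the older against younger comparison either (median -0.03, and -0.15 over all tested). miR-150 was thus the only one of these blood-cell miRNAs called in the spleen by limma. Among the smooth muscle and stroma list, miR-145 was called higher in the spleen (2.55, limma adjusted p = 4.17e-08), at 126600 to 198900 RPM there. Among the striated muscle list, miR-1, miR-133a and miR-133b were called lower in the lung. The erythroid list had 1 tested name, miR-486, and the endothelial list miR-126-3p, and neither was called in any of the 6 comparisons. The listed epithelial names had 0 reads in all 4 spleens and 3.08 to 9.595 RPM in the lungs. The part of these cell types in the levels of miR-142-5p and miR-150 was not tested.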

How the data were processed

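Before deposit, the authors trimmed adapters, dropped short reads and other RNA classes, and assigned the rest to miRBase or predicted miRNAs. The submitters' processing notes name Bowtie, CASAVA and bcl2fastq 1.8.4. The deposited tables give RPM, which their header calls tpm, per library with zeros unlisted. All 7982 values were whole reads within 0.01, so reads were recovered. Known names were joined over libraries, with miR-148c of antler taken as miR-2957. Some pairs of names hold the same reads, and the base of the RPM counts both.

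A filter of 10 reads in 4 or more libraries left 124 known miRNAs. Their log2(RPM + 1) values, scaled by TMM factors of these miRNAs (edgeR 4.0.16), were fitted with limma 3.58.1 (trend, R 4.3.3), with organ and stage terms, Benjamini-Hochberg adjustment, and single-library terms for the aged spleen and the adolescence lung. Stage is the replicate block of the organ comparisons, since organs of one stage share deer. The edgeR quasi-likelihood test on recovered reads called 10 miRNAs in the spleen, 19 in the lung and 14 in the aged spleen comparison, and DESeq2 1.42.0 was a further alternative. Pairs used the random sampling model of DEGseq, rewritten in Python 3.11.15 (numpy 2.4.6, pandas 2.3.3, scipy 1.17.1), with 0.5 for 0 reads. Intervals are exact binomial (Clopper-Pearson, 95%). Scripts were tested on simulated data.

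Beside the members, the text names the 3 tested miRNAs with the highest and the 3 with the lowest Pearson's r to each, and up to 3 abundant miRNAs of each list of cell-linked names. Markers of organ labels (miR-208b, miR-124a) and miR-21-5p, miR-191, miR-92a, let-7b, miR-3596, miR-26a, miR-26c, miR-199a-3p and miR-3604 were named after their values were seen. The members, lists and tests were chosen with earlier results of these data known. P values of limma, edgeR and DESeq2 rest on the spread left between libraries after the organ and stage terms. That spread is not one between replicate pools of deer, of which there were none. The q values of library pairs rest on the sampling of reads only. Alternatives were other scalings, a pseudocount of 10, no filter, no stage term, miR-1 left out of the totals and each organ, stage or library left out. The mature sequences were not used here.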

Additional observations from a re-analysis of the deposited data

Results flagged for a closer look

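Each organ's 4 libraries and each stage's 10 libraries, 28 groups in all, were examined for 1 library standing apart. The measure was Dixon's ratio, the gap to the nearest library over the whole range. Its limits mark about 1 in 20 groups by chance only for replicates with normal spread. RPM of different organs or stages is not such a set, so no chance rate is given. For miR-142-5p the aged spleen stood apart within the spleen (0.966) and within the aged stage (0.955). The juvenile brain (0.838, 31 reads), the aged muscle (0.914, 12 reads) and, within the adult stage, the antler (0.596, 85 reads) stood apart as well. For miR-150 the spleen stood apart from the other organs at the juvenile (0.8286), adolescence (0.790) and adult (0.569) stages, and the aged antler within antler (0.893, 10 reads).

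The shift of miR-142-5p between younger and older libraries had opposite directions in liver and 4 other organs, with no overlap of the RPM values. The intervals of counting error did overlap in liver (adolescence 10.5 to 47.8 RPM on 8 reads, aged 19.7 to 47.7 RPM on 22 reads). They also overlapped in heart (juvenile 7.21 to 15.7 RPM on 28 reads, aged 3.11 to 15.9 RPM on 7 reads). Of 6 pairs of stages 1 was called in liver and 0 in heart. The mean RPM of the older minus that of the younger libraries was 22.4 in liver, and -35.3 in adrenal, -5.89 in heart, -101 in kidney and -355 in testes. The difference between liver and these organs was not tested directly, and the shift of liver against that of the other 9 organs gave limma adjusted p = 0.990.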

How the results depend on the processing

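With 1 library per organ and stage, limits come from depth and from single libraries. The miR-142-5p difference in the spleen was called by edgeR (4.25) and DESeq2 (4.49) and ran from -0.068 to 2.87 with 1 library, organ or stage left out; that of miR-150 ran from 2.52 to 4.26 and lost its call in 4 of 53 such fits. The miR-142-5p difference between spleen and lung (-0.06) turned to 0.51 on all miRNA reads, 0.085 with DESeq2 size factors, 2.26 in edgeR, 2.73 in DESeq2, 0.13 with a pseudocount of 10 and 0.10 with no filter, and ran from -1.90 to 1.11 with parts left out. In the aged spleen, miR-142-5p (7.34) was called with DESeq2 size factors (7.81), edgeR (7.27), DESeq2 (7.84) and a pseudocount of 10 (6.34), and in 20 of 51 fits with parts left out (6.22 to 8.03); miR-150 (-4.12) was called in DESeq2 (-3.63) and with a pseudocount of 10 (-3.17). The causes were not tested. Organs with both older libraries higher in miR-142-5p became 2 in place of 1 on TMM-scaled levels, an alternative chosen after seeing the data. Without the stage term as replicate block, miR-150 in the spleen gave 3.23 with limma adjusted p = 0.00167, and the block changed no other member's call in the organ comparisons. No other member's call changed in the lung, stage and adolescence lung comparisons, and the pooled counts of called pairs, over all stage pairs and over all organ pairs of spleen and lung, stayed within 1.5 times. Counts in single organs and directions did not. With TMM-scaled totals, called stage pairs went from 0 to 5 for miR-142-5p and from 4 to 3 for miR-150 in heart, from 0 to 2 for miR-150 in muscle, and pairs called lower against other organs from 8 to 4 for miR-150 in lung and from 8 to 5 for miR-142-5p in spleen.

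Counts over all miRNAs were less stable. The 6 calls in the spleen became 13 on all miRNA reads, 10 in edgeR and 15 in DESeq2, and their split of 5 higher and 1 lower became 12 and 1 on all reads and 4 and 3 with DESeq2 size factors. The 8 and 8 of the lung became 5 and 12 with the latter. The median difference of all miRNAs in the spleen moved from -0.11 to 0.42 on all reads. The 7 between spleen and lung became 12 in edgeR and 15 in DESeq2. The 10 between older and younger became 4 on all reads, 22 in DESeq2 and 4 with a pseudocount of 10. The 2 in the aged spleen became 8 with DESeq2 size factors, 14 in edgeR, 30 in DESeq2, 4 with a pseudocount of 10, 6 with no filter and 7 with miR-1 left out of the totals. The 0 in the adolescence lung became 2 with no filter. The 6 of the stage test became 10 in edgeR, 32 in DESeq2, 0 with no filter and 19 without the aged spleen and the adolescence lung. With 1 library, organ or stage left out, the calls ran from 1 (without the juvenile stage) to 12 (without brain) in the spleen, from 4 (without the adolescence stage) to 13 (without testes) between spleen and lung, from 11 to 21 in the lung, from 0 (without the juvenile stage) to 23 (without the adolescence brain) between older and younger, from 0 (without the adult spleen) to 9 in the aged spleen, from 0 to 1 in the adolescence lung, and from 0 (without the juvenile stage) to 20 (without the aged spleen) in the stage test. The shares of miRNAs called that stand beside the members move with these counts. A covariate of GC content was not run, since no reference sequences were used here.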

Other observations

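Several miRNAs that many tissues and blood cells are known to hold in quantity had few reads over the 40 libraries. miR-21-5p had 51 reads, miR-451 had 8, miR-191 had 9 and miR-92a had 2, while miR-486 had 285317 and miR-186 had 215045. Beside them miR-142-5p had 2462 reads and miR-150 had 1423. The shared reads of let-7b and miR-3596 were 3949538.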
